A study of Mus musculus with 6 samples.

Results

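The antioxidant genes described here are 39 genes of the NRF2, glutathione and thioredoxin systems, taken by name and grouped by role, among 55536 annotated genes. The rule uses names and roles, with no threshold on a measured value. The members were, however, chosen with earlier results of these data known. Their shares beside those of all genes are therefore a description only. All 39 matched 1 gene each, and 38 had enough counts to be tested. They were read in 6 libraries of total RNA from RAW264.7 cells, a mouse macrophage line transformed by the Abelson leukaemia virus: 3 received PBS, a phosphate-buffered saline, and are called control, and 3 received particles of titanium (Ti), a metal used in joint and dental implants. Every library is of this 1 line. The labels give C57BL/6 as its background strain, although the line is known to come from a BALB/c mouse, and neither the dose nor the length of exposure is stated in the labels. Nothing in the labels says whether the replicates came from different cultures; the p-values therefore reflect only how far these samples differ, which may be technical.

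NRF2 (gene Nfe2l2) is a transcription factor that KEAP1 holds in the cytosol and marks for degradation. Oxidants and electrophiles modify cysteines of KEAP1, NRF2 then builds up, pairs with a small MAF protein such as MAFG and binds antioxidant response elements, which BACH1 otherwise occupies as a repressor. Its targets make glutathione, keep glutathione and thioredoxin reduced at the expense of NADPH, and remove peroxides. Macrophages rely on these systems while their own oxidase makes superoxide.

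The cells carried macrophage RNA. All 8 macrophage markers were present in every library, with a summed level of 5599 to 7459 CPM in control and 6903 to 8771 CPM with Ti (CPM, counts scaled to a common library size after TMM normalization). Lyz2 made up most of that sum. Ptprc, Adgre1, Csf1r and Cd68 had lower means with Ti, and Lyz2, Itgam, Cd14 and Spi1 higher ones. By replicate number, Csf1r read 472, 1462 and 1598 CPM in control and 1387, 144 and 435 CPM with Ti. Itgam ran from 11.9 to 112 CPM with Ti. The 3 B cell markers and the epithelial markers Epcam, Cdh1, Krt18 and Krt19 were at 0 in every library. The 7 osteoclast markers summed to 22.0 to 24.8 CPM in control and 28.9 to 48.2 CPM with Ti, with Calcr at 0. They did not share a direction. Ctsk, Acp5, Mmp9 and Dcstamp had higher means with Ti, and Ocstamp (7.92 and 5.57 CPM) and Oscar (0.116 and 0.00893 CPM) lower ones. By replicate number, Acp5 read 8.53, 9.85 and 1.58 CPM in control and 23.7, 22.4 and 2.93 CPM with Ti. The part of these markers in the results below was not tested. The annotated transcripts summed to 37685950 to 60242851 rescaled counts per library, and 3 counts, taken as the detection floor for counting error only, stood for 0.0498 to 0.0796 CPM of the unscaled totals.

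With Ti, 11 of the 38 tested antioxidant genes lay above their control level and 27 below it; no single one could be called. No member passed an adjusted p of 0.05 in edgeR's quasi-likelihood test, adjusted by Benjamini-Hochberg over 15376 genes (lowest 0.529), in a table where 0.013% of all genes passed as higher and 0.013% as lower. At an unadjusted p of 0.05, 3 of 38 members (7.89%) were higher with Ti and 3 (7.89%) lower, against 3.42% and 3.34% of all genes tested (6.76% in either direction). DESeq2 gave 0 members past an adjusted p of 0.05, and 3 higher and 2 lower at the unadjusted one, beside 8.58% of all genes in either direction in DESeq2. The 3 control and 3 Ti libraries did not overlap in 3 members that were higher and 4 that were lower, against 6.63% and 6.71% of all genes (13.3% in either direction). Of the 38 members 11 had a positive and 27 a negative log2 fold change, with a median of -0.11, beside a median of 0.0053 with 50.9% positive and 49.1% negative over all genes tested. By library, the members' median log2 difference from their control mean was 0.074, 0.046 and -0.062 in control replicates 1 to 3. With Ti it was -0.094, -0.080 and -0.076. Control replicate 3 thus lay close to the Ti libraries, and the lean below control rested on control replicates 1 and 2. In bulk RNA, a change in the share of cells of a kind and a change in RNA per cell cannot be told apart.

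**Figure D1:**
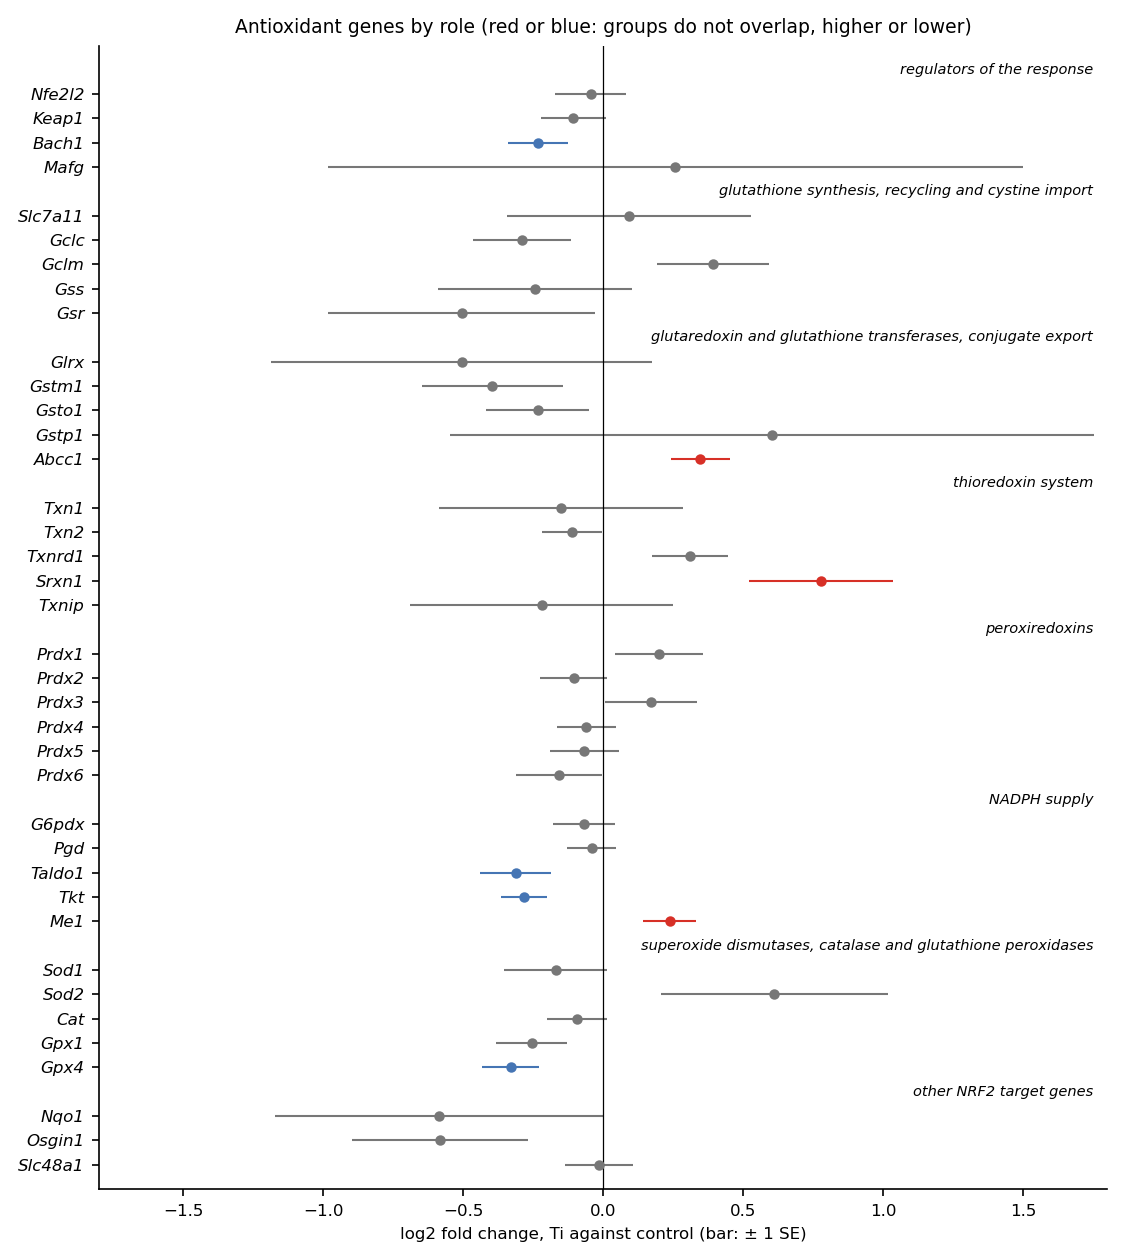
Log2 fold change (x axis, Ti against control, with bars of 1 SE) of the 38 tested antioxidant genes, grouped by role. Srxn1, Abcc1 and Me1 (red) were higher and Bach1, Taldo1, Tkt and Gpx4 (blue) lower in all 3 Ti libraries than in any control library; grey genes overlapped between the groups.

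The members with lower unadjusted p-values fell into different roles. The 3 that were higher encode sulfiredoxin (Srxn1), a glutathione-conjugate exporter (Abcc1) and malic enzyme (Me1). The 3 that were lower encode transketolase (Tkt) and transaldolase (Taldo1) of the non-oxidative pentose phosphate branch and the phospholipid hydroperoxide peroxidase (Gpx4). In the NADPH supply group 3 of 5 members had an unadjusted p under 0.05, 1 higher and 2 lower, beside 6.76% of all genes tested; nothing particular to so small a group can be read from that count. None of the 6 peroxiredoxins, the 5 glutathione synthesis and recycling genes or the 4 regulators did.

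Promoter sequence is shown here because NRF2 acts through a short element in DNA. The core of the antioxidant response element, TGACNNNGC, was searched on both strands of RefSeq promoter windows (GRCm38.p6, 250 bases before to 50 bases after an annotated start). Of the 39 members 33 had a window and 10 of these (30.3%) held the letters, against 16.9% of tested genes with a window and 12.4% of all 32851 windows. Windows from 5 members with positive fold changes follow, on the gene's strand, with the matched letters in capitals; GCNNNGTCA is the element read on the other strand.
Gclm, chr3:122245397-122245457, plus strand: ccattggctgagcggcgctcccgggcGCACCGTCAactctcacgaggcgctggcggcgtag
Txnrd1, chr10:82859088-82859148, plus strand: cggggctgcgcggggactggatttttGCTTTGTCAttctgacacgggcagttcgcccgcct
Prdx1, chr4:116685440-116685500, plus strand: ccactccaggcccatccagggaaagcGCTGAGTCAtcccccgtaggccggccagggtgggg
Me1, chr9:86695902-86695930, minus strand: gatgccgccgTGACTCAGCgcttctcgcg
Srxn1, chr2:152105542-152105570, plus strand: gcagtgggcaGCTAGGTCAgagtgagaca
The Me1 and Prdx1 matches also hold TGACTCA or its complement, the letters that AP-1 proteins bind. The matches begin 134, 92, 133 and 6 bases before the start in Gclm, Txnrd1, Prdx1 and Me1 and at base 29 after it in Srxn1. The window of Txnrd1 belongs to a start 1095 bases from that of the transcript that carried most of its value, Txnrd1-206. The Txnrd1 window 40 bases from the start of Txnrd1-206 held no match, and neither did the Pgd window 2 bases from the start of the main Pgd transcript; both genes count as matches through another window. The other members with a match, whose windows are not shown, were Mafg with a positive and G6pdx, Nfe2l2, Pgd and Sod1 with negative fold changes. The only G6pdx window belongs to a start 314 bases from that of its main transcript, G6pdx-201. The 10 members with a match had 0.22 as their median log2 fold change, with 6 positive and 4 negative, and the 23 tested members with a window and no match -0.22, with 4 positive and 19 negative. Over all tested genes the medians were -0.0064 with the letters and -0.0054 without them. Elements outside these windows were not searched, so a member without a match, such as Nqo1, Slc7a11 or Osgin1, may have the element elsewhere. A match is a description of letters and not of binding, and no test was made of the difference between members with and without a match.

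Levels per length spanned more than 3 orders of magnitude in control. Gpx1, the abundant cytosolic glutathione peroxidase, was highest at 363 CPM per kilobase, followed by Taldo1 (308), the cytosolic superoxide dismutase Sod1 (307), Pgd (300) and Tkt (246), all per kilobase. Among the first 4, each neighbour in this order differed by less than the sum of both SDs. Prdx1 (211) and Txn1 (207) came next. At the other end, the glutathione transferase gene Gstp1 stood at 1.41 CPM per kilobase and Nqo1, a quinone reductase often used as a readout of NRF2, at 0.197. In counts Nqo1 had 16, 19 and 8 in the control libraries and 12, 10 and 4 with Ti, for a log2 fold change of -0.59 ± 0.58 (edgeR unadjusted p 0.354); a difference was hardly detectable at this depth. Gsta4, a transferase for lipid aldehydes, had 6 counts in control replicate 1, 3 in Ti replicate 1 and 0 elsewhere, and was not tested. Reads of Gstp1 could be shared with its related neighbours Gstp2 and Gstp3, which were at 0 in every library, so its level is uncertain.

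**Figure D2:**
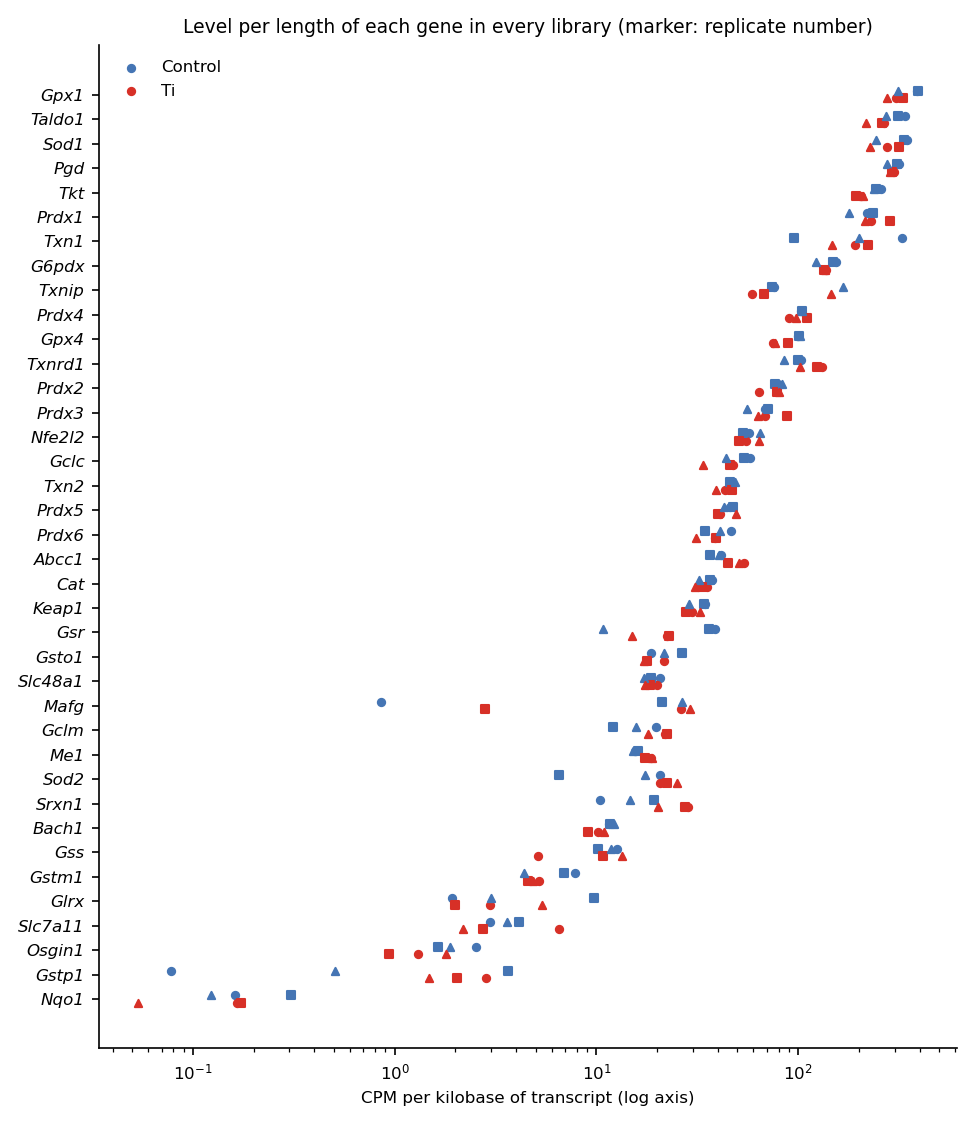
Level of each tested antioxidant gene in CPM per kilobase of transcript (x axis, log scale), with control libraries in blue, Ti libraries in red and the marker giving the replicate number. Control means run from 363 for Gpx1 to 0.197 for Nqo1, and Mafg, Gstp1, Sod2 and Gsr have single libraries far from the rest.

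Of the regulators, Nfe2l2 and Keap1 had overlapping groups. Nfe2l2 read 139, 130 and 158 CPM in the control libraries, given throughout in the order of their replicate numbers, and 134, 125 and 155 CPM in those with Ti. That is a log2 fold change of -0.04 ± 0.13 (SE) with an edgeR adjusted p of 0.987. The groups overlapped almost fully, and the libraries numbered 3 were the highest of each group. Keap1, the sensor and inhibitor, stood at 116, 115 and 97.0 CPM in control and 100, 93.8 and 110 CPM with Ti, for a log2 fold change of -0.11 ± 0.12 (edgeR unadjusted p 0.391, adjusted 0.945). Bach1, the competing repressor, was the only regulator whose groups were apart: 64.6, 64.9 and 68.1 CPM in control against 56.8, 50.8 and 60.5 CPM with Ti. Its log2 fold change was -0.23 ± 0.11 (edgeR unadjusted p 0.0703, adjusted 0.770). Mafg, the small MAF partner, was uneven within both groups, at 4.16, 103 and 129 CPM in control and 128, 13.6 and 141 CPM with Ti. Its main coding transcript, Mafg-201, was low in control replicate 1 and Ti replicate 2. The log2 fold change of 0.26 ± 1.24 was -0.30 without control replicate 1, 0.81 without control replicate 3, 0.77 without Ti replicate 2 and below 0 without Ti replicate 1 or 3.

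Srxn1 had the largest fold change among members with an unadjusted p under 0.05. Sulfiredoxin, its product, reduces overoxidised peroxiredoxins (ENSMUSG00000032802, GRCm38 chromosome 2, 152105516 to 152111376, plus strand). Its control values were 29.0, 53.9 and 40.9 CPM, and its Ti values 79.4, 76.4 and 56.7 CPM. Every Ti library was above every control library, although the lowest Ti and the highest control value were close. The means were 41.3 ± 12.5 and 70.8 ± 12.3 CPM (SD, n = 3 per group). The log2 fold change was 0.78 ± 0.26 (edgeR unadjusted p 0.0225, adjusted 0.630). Without control replicate 3, Ti replicate 1 or Ti replicate 2 the unadjusted edgeR p was 0.0591, 0.0692 and 0.0641, and without control replicate 1 the log2 fold change was 0.58.

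The rest of the thioredoxin system did not follow Srxn1 as a whole. Txnrd1, the reductase that passes electrons from NADPH to thioredoxin (chromosome 10, 82833951 to 82897712, plus strand), stood at 360, 347 and 295 CPM in control and 457, 431 and 354 CPM with Ti. Ti replicate 3 lay inside the control range, yet each Ti library was above the control library of the same number. Of all genes tested 18.3% were higher and 17.3% lower in all 3 such pairs, and the labels do not state that the numbers pair samples. The log2 fold change of Txnrd1 was 0.31 ± 0.13, with an unadjusted edgeR p of 0.0590 and, with the replicate number as a block, 0.00707 (adjusted 0.387). Its substrate Txn1, cytosolic thioredoxin, stood at 345, 99.9 and 209 CPM in control and 202, 233 and 155 CPM with Ti. The control values alone spanned a range wider than the whole Ti group, and the log2 fold change of -0.15 ± 0.43 was 0.35 without control replicate 1 and -0.50 without control replicate 2. Txn2, the mitochondrial form, ranged from 61.0 to 64.4 CPM in control and from 52.3 to 62.8 CPM with Ti (-0.11 ± 0.11).

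Txnip, the thioredoxin-binding inhibitor that is also sensitive to glucose supply, followed the replicate number more than the treatment. It stood at 210, 205 and 459 CPM in control and 162, 187 and 402 CPM with Ti. Both libraries numbered 3 were about equally far above the others, and within each number the Ti library was the lower one. Ti against control gave -0.22 ± 0.47 on the log2 scale (unadjusted edgeR p 0.657) without a block and -0.23 ± 0.08 with it (unadjusted p 0.0426, adjusted 0.521). Without control replicate 3 and without Ti replicate 3 the unblocked value was 0.27 and -0.74.

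**Figure D3:**
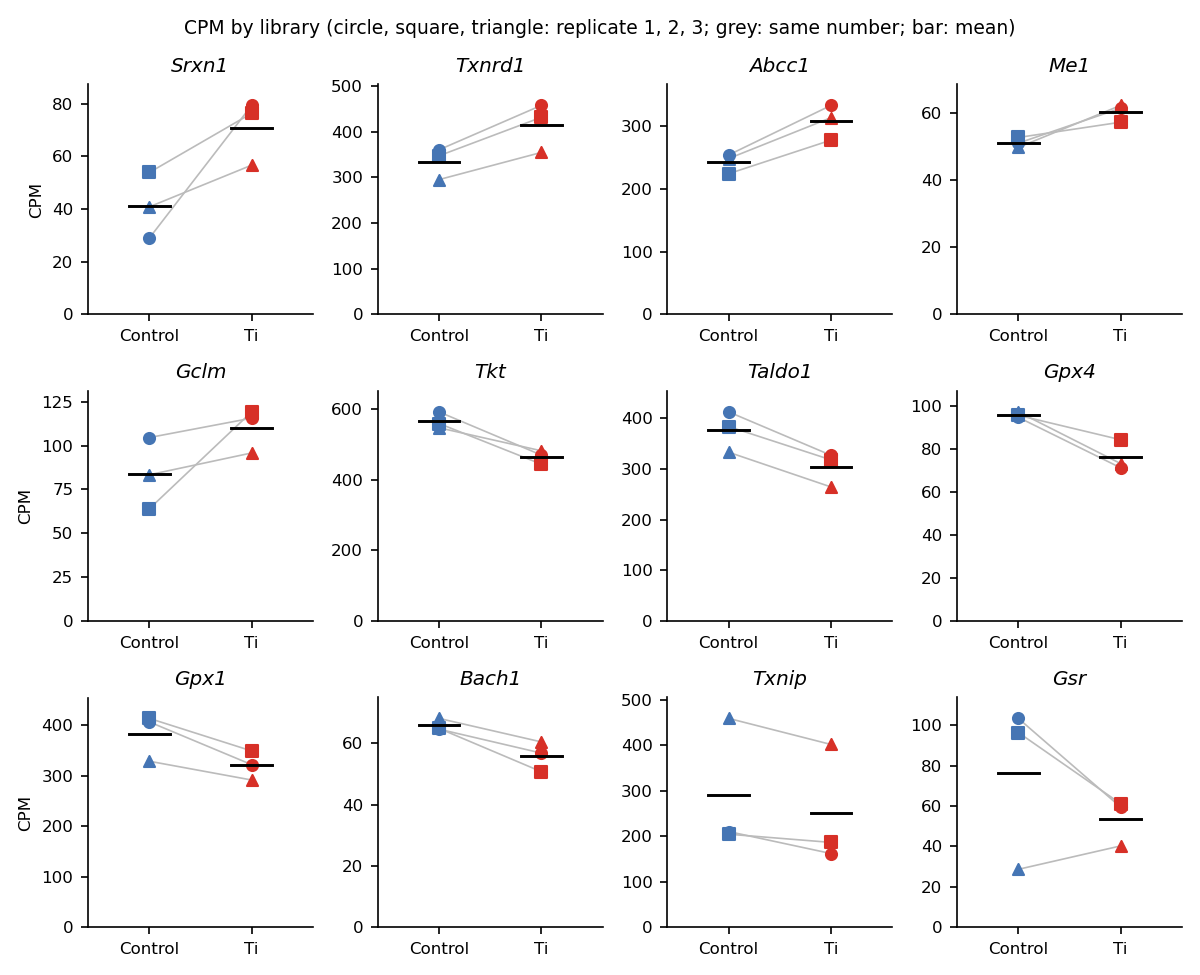
CPM (y axis, from 0) of 12 antioxidant genes in each library, with control in blue, Ti in red, markers for replicates 1 to 3, grey lines joining the same number and black bars for means. Srxn1, Txnrd1, Abcc1, Me1 and Gclm are higher with Ti in all 3 pairs, and Tkt, Taldo1, Gpx4, Gpx1, Bach1 and Txnip lower; Txnip and Gsr set the libraries numbered 3 apart.

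Glutathione synthesis depends on cystine import by SLC7A11, on glutamate-cysteine ligase with its catalytic (Gclc) and modifier (Gclm) subunits, and on glutathione synthetase (Gss). The 2 subunits of the ligase lay on opposite sides of 0. Gclm stood at 105, 64.0 and 83.4 CPM in control and 116, 119 and 95.8 CPM with Ti. All 3 same-numbered pairs were higher with Ti while the groups overlapped, and the log2 fold change was 0.39 ± 0.20 (unadjusted edgeR p 0.0957). Control replicate 2 decided part of it: there the non-coding model Gclm-202 took 49.3% of the gene, against 0.104% to 0.184% in the 5 others. Without that library the log2 fold change was 0.23, without control replicate 1 it was 0.58 (unadjusted edgeR p 0.0219), and with unrescaled values it was 0.022.

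Gclc stood at 197, 184 and 149 CPM in control and 162, 157 and 115 CPM with Ti, lower in each same-numbered pair but overlapping between groups. Its log2 fold change was -0.29 ± 0.18, with an unadjusted edgeR p of 0.150 without the block and 0.0139 with it (adjusted 0.433). Without Ti replicate 3 the unblocked value was -0.14. Gss read 25.5, 20.5 and 24.0 CPM in control and 10.4, 21.8 and 27.0 CPM with Ti. Ti replicate 1 alone was low, and the log2 fold change of -0.24 ± 0.35 was 0.060 without it. Gsr, the reductase that regenerates glutathione, stood at 103, 96.3 and 28.7 CPM in control and 59.5, 61.2 and 40.3 CPM with Ti. Control replicate 3 was the lowest of all 6, and without it the log2 fold change of -0.51 ± 0.48 became -0.89 (unadjusted edgeR p 0.00791); without control replicate 1 it was -0.23.

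Slc7a11 was carried by retained-intron models only. Its coding transcript Slc7a11-201 was at 0.117 rescaled counts in each library, a deposited value of 1. The gene stood at 8.50, 11.8 and 10.2 CPM in control and 18.6, 7.79 and 6.24 CPM with Ti, for a log2 fold change of 0.09 ± 0.44 (edgeR unadjusted p 0.838). The models behind that sum differed. Slc7a11-202, which spans 27645 bases, had 124, 84.9 and 85.7 rescaled counts in control and 270, 245 and 223 with Ti, every Ti library above every control one. Slc7a11-204 had 420, 390 and 341 in control and 594, 46.0 and 77.0 with Ti. Because unrescaled values weight the longer model more, the log2 fold change was then 1.07 (unadjusted edgeR p 0.00241), and without Ti replicate 1 it was -0.54. Assembled transcripts that carry no gene name were not analysed here and may hold reads of this gene.

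Of the 5 tested members of the glutaredoxin, transferase and export group, Abcc1 alone had separated groups. Abcc1 (MRP1; chromosome 16, 14361558 to 14475737, plus strand), which pumps glutathione conjugates out of the cell, stood at 254, 224 and 248 CPM in control and 333, 278 and 314 CPM with Ti. The means were 242 ± 15.8 and 308 ± 28.1 CPM (SD, n = 3 per group). The log2 fold change was 0.35 ± 0.11 (edgeR unadjusted p 0.0158, adjusted 0.562), and the unadjusted p was 0.0646 without control replicate 2 and 0.0552 without Ti replicate 1. The transferase Gstm1 ranged from 5.61 to 10.1 CPM in control and from 5.84 to 6.63 CPM with Ti (-0.40 ± 0.25). Its log2 fold change was -0.60 (unadjusted edgeR p 0.0195) without control replicate 3 and -0.22 without control replicate 1. Gsto1 lay between 21.4 and 30.4 CPM in control and was lowest, at 19.8 CPM, in Ti replicate 3 (-0.23 ± 0.18, and -0.093 without control replicate 2). Glrx, glutaredoxin, rested on 1 library: the coding transcript Glrx-201 had 1041 rescaled counts in control replicate 2 and at most 9.42 in the 5 others. Another coding transcript, Glrx-204, had 71.2, 2.73 and 49.1 in control and 74.0, 55.9 and 78.5 with Ti. The retained-intron model Glrx-203 held 74.8% to 89.9% of the gene outside control replicate 2. The log2 fold change of Glrx, -0.51 ± 0.68, was 0.48 without control replicate 2. In the alternative settings that kept all libraries it ran from -2.52 to -0.20. Gstp1 ran from 0.0625 to 2.92 CPM within the control group, which held the whole Ti range of 1.19 to 2.27 CPM. Its log2 fold change was 0.60 ± 1.15, and 0.026 without control replicate 1 and 2.89 without control replicate 2.

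The peroxiredoxins, which reduce hydrogen peroxide through a reactive cysteine, showed gene totals close in both groups. Prdx1 had the largest log2 fold change of the 6, 0.20 ± 0.16, from 494, 528 and 401 CPM in control to 512, 642 and 481 CPM with Ti, higher in each same-numbered pair. Mitochondrial Prdx3 had 0.17 ± 0.16 and was also higher in each pair. Both rested partly on Ti replicate 2, without which Prdx1 was 0.064 and Prdx3 0.016; without control replicate 3 they were 0.096 and 0.077. Prdx2, Prdx4 of the secretory pathway, Prdx5 and the 1-cysteine form Prdx6 had log2 fold changes of -0.10, -0.06, -0.07 and -0.16, each about as large as its SE or smaller. Exons of Prdx2 overlap those of Junb on the opposite strand, which stood at 276 CPM in control and 337 CPM with Ti. Whether counting used strand is not given in the sources used here, so reads of these genes may not be separable.

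Prdx5 had similar totals in both groups while the transcript that carried it differed. The gene (chromosome 19, 6906697 to 6910106, minus strand) stood at 51.9, 54.1 and 48.7 CPM in control and 46.6, 45.3 and 55.7 CPM with Ti. Prdx5-201, the 6-exon transcript, made up 93.2%, 93.2% and 93.9% of the gene in control and 17.7%, 63.3% and 49.0% with Ti. Prdx5-203, with 5 exons, made up 5.28%, 5.79% and 4.38% in control and 74.8%, 35.0% and 47.2% with Ti. The 2 groups were far apart for both transcripts, and the Ti libraries differed among themselves. Prdx5-203 lacks the first exon of Prdx5-201 (6909459 to 6910106) and starts at 6908301, inside the intron that follows it. The annotated coding lengths of Prdx5-201 and Prdx5-203 are 630 and 639 bases.

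This pattern was picked after its values were seen. Among 8349 tested genes with several transcripts and at least 100 rescaled counts in every library, 62 (0.743%) had a transcript whose mean share differed by 40 percentage points or more with no overlap between groups. Prdx5 and Slc7a11 were the 2 such cases among 33 members examined. These shares are the authors' estimates of transcripts that share most exons, no test was made of them, and the exons of Prdx5 also overlap those of Trmt112 on the opposite strand (38.2 and 32.5 CPM).

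**Figure D4:**
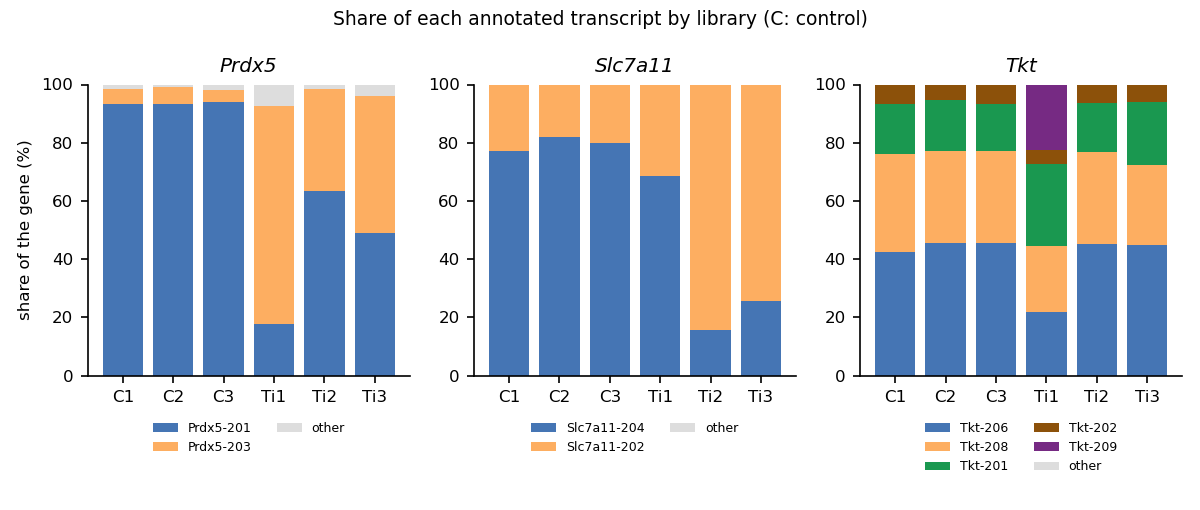
Share of each annotated transcript in the rescaled value of its gene (y axis, percent) for Prdx5, Slc7a11 and Tkt in the 3 control (C1 to C3) and 3 Ti libraries. Prdx5-201 holds over 93% in each control library and 17.7% to 63.3% with Ti, Slc7a11-202 has a larger share in each Ti library than in any control library, and Tkt-209 holds 22.3% in Ti replicate 1 and at most 0.0681% in the others.

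NADPH, which feeds both reductases, is made by the oxidative pentose phosphate enzymes and by malic enzyme. The oxidative enzymes did not differ beyond their spread: G6pdx, glucose-6-phosphate dehydrogenase, had a log2 fold change of -0.07 ± 0.11 (316 to 399 CPM in control, 348 to 354 CPM with Ti), and Pgd, 6-phosphogluconate dehydrogenase, one of -0.04 ± 0.09 (612 to 704 and 638 to 663 CPM). Me1, cytosolic malic enzyme (chromosome 9, 86581371 to 86695953, minus strand), stood at 51.0, 52.7 and 49.7 CPM in control and 61.4, 57.2 and 62.2 CPM with Ti. The groups were apart and tight, with a log2 fold change of 0.24 ± 0.10 (edgeR unadjusted p 0.0465, adjusted 0.732). The unadjusted p was 0.0588 with the replicate block, 0.0843 with no filter on low counts, and 0.0511 to 0.129 in the 6 fits without 1 library.

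The non-oxidative enzymes did not share a direction. Rpe and Rpia, the epimerase and isomerase of this branch from the wider pathway list, had log2 fold changes of 0.88 ± 0.65 and -0.09 ± 0.10, with edgeR unadjusted p-values of 0.224 and 0.414. Rpe read 38.9, 30.4 and 5.37 CPM in control and 43.5, 54.6 and 39.8 CPM with Ti, all Ti libraries being above the control ones and control replicate 3 far below the rest. Taldo1, transaldolase (chromosome 7, 141392199 to 141402968, plus strand), stood at 412, 383 and 333 CPM in control and 327, 318 and 264 CPM with Ti, just apart between groups. Its log2 fold change was -0.31 ± 0.13 (edgeR unadjusted p 0.0493, adjusted 0.736; with the replicate block 0.00660 and 0.387). Of the 6 fits without 1 library only that without control replicate 3 kept an unadjusted p under 0.05, and the value was -0.22 without Ti replicate 3. Tkt, transketolase (chromosome 14, 30548359 to 30574720, plus strand), had the lowest p of the members, at 593, 560 and 548 CPM in control and 470, 444 and 482 CPM with Ti, for a log2 fold change of -0.28 ± 0.08 (edgeR unadjusted p 0.0125, adjusted 0.529). Without control replicate 1 its unadjusted p was 0.0511.

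Most of the control value of Tkt lay in models annotated as retained introns. Tkt-206 and Tkt-208 together held most of the gene in control, with mean shares of 44.5% and 32.4%. The Tkt-206 share was 42.6%, 45.5% and 45.5% in control and 21.8%, 45.3% and 44.7% with Ti, so that Ti replicate 1 alone was low. The Tkt-208 share was 33.5%, 31.8% and 31.7% in control and 22.7%, 31.7% and 27.7% with Ti. The coding transcript Tkt-201 had 6482, 3918 and 3654 rescaled counts in control and 6142, 2779 and 4979 with Ti, overlapping between groups. With protein-coding transcripts only, the log2 fold change of Tkt was 0.13 (unadjusted edgeR p 0.558).

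Among the enzymes that remove superoxide and peroxide, Gpx4 was the 1 of 5 with separated groups. Gpx4, the selenoenzyme that reduces lipid hydroperoxides and guards against ferroptosis (chromosome 10, 80047166 to 80056439, plus strand), stood at 94.8, 95.7 and 97.3 CPM in control and 71.3, 84.3 and 73.2 CPM with Ti. The control libraries were nearly equal and all above the Ti ones, with means of 95.9 ± 1.28 and 76.3 ± 7.05 CPM (SD, n = 3 per group). The log2 fold change was -0.33 ± 0.10 (edgeR unadjusted p 0.0173, adjusted 0.578), and the unadjusted p was 0.0636 without Ti replicate 1 and 0.0504 without Ti replicate 3. A single coding transcript, Gpx4-202, made up 94.0% to 97.3% of the gene in all 6 libraries.

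Gpx1 stood at 407, 414 and 329 CPM in control and 322, 349 and 292 CPM with Ti, lower in each same-numbered pair with overlapping groups. In edgeR it had a log2 fold change of -0.25 ± 0.13, with an unadjusted edgeR p of 0.0893 without the block and 0.0204 with it (adjusted 0.468). Sod1 ranged from 226 to 322 CPM in control and from 212 to 295 CPM with Ti (-0.17 ± 0.18). Cat, catalase, ranged from 83.9 to 98.1 and from 80.7 to 92.3 CPM (-0.09 ± 0.11). Sod2, the mitochondrial manganese superoxide dismutase and a known NF-kB target, stood at 108, 34.0 and 90.6 CPM in control and 108, 117 and 131 CPM with Ti. Control replicate 2 alone was low, and without it the log2 fold change of 0.61 ± 0.41 was 0.25; without control replicate 1 it was 0.93.

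The remaining NRF2 targets were scarce or level. Osgin1, an oxidative stress-induced growth inhibitor, stood at 5.55, 3.59 and 4.12 CPM in control and 2.85, 2.06 and 3.93 CPM with Ti, for a log2 fold change of -0.58 ± 0.31. Its value again depended on transcript choice: with protein-coding transcripts only it was 1.36, since the retained-intron model Osgin1-205 held 87.4% of the gene in control on average and was at 0 in Ti replicate 2. Slc48a1, which moves heme out of the lysosome, had nearly equal ranges, 43.5 to 52.0 CPM in control and 43.8 to 50.7 CPM with Ti (-0.02 ± 0.12).

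The labels do not state that same-numbered libraries are paired. Read by same-numbered pairs, 7 of 38 members (18.4%) were higher with Ti in all 3 pairs and 11 (28.9%) lower in all 3, against 18.3% and 17.3% of all genes tested. The higher ones were Gclm, Abcc1, Txnrd1, Srxn1, Prdx1, Prdx3 and Me1. The lower ones were Nfe2l2, Bach1, Gclc, Txnip, Taldo1, Tkt, Sod1, Cat, Gpx1, Gpx4 and Osgin1. With the replicate number as a block, 3 members were higher (Abcc1, Txnrd1 and Srxn1) and 6 lower (Gclc, Txnip, Taldo1, Tkt, Gpx1 and Gpx4) at an unadjusted p of 0.05, against 5.04% and 4.32% of all genes (9.37% in either direction), and none passed the adjusted p (lowest 0.387).

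Other redox and detoxification genes of the pathway were listed under 105 names. Trim16l had no match in the annotation and Nnt had 2. Of the list, 77 genes were tested. Of these 6 were higher and 6 lower at an unadjusted p of 0.05 (7.79% each way), beside 3.42% and 3.34% of all genes tested. The groups did not overlap in 9 that were higher and 12 that were lower (27.3% in all), beside 13.3% of all genes. This list too was chosen with earlier results of these data known, so these shares are a description only. Of the 77, 0 passed the adjusted p in edgeR, and the median log2 fold change was -0.02. Hmox1, the heme oxygenase that BACH1 represses and NRF2 induces, stood at 61.2, 61.9 and 86.2 CPM in control and 97.7, 93.6 and 130 CPM with Ti, all Ti libraries above the control ones (log2 fold change 0.62 ± 0.20, edgeR unadjusted p 0.0200, adjusted 0.614). Sqstm1, the p62 receptor that binds KEAP1 and is itself an NRF2 target, was the lowest in p of the list. It stood at 201, 188 and 247 CPM in control and 79.1, 77.3 and 120 CPM with Ti, for a log2 fold change of -1.20 ± 0.21 (edgeR unadjusted p 0.00119, adjusted 0.235), with the groups far apart. Park7 and the microsomal transferase Mgst3 had -0.39 ± 0.10 and -0.71 ± 0.19, while the NAD kinase Nadk had 0.30 ± 0.08. Gstt1 had 1.35 ± 0.33 at 0.209 and 0.535 CPM. The groups did not overlap in any of these 4.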

How the data were processed

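Total RNA of 6 libraries was sequenced. The authors deposited an estimated count for every transcript, 187351 per library. HISAT2, StringTie and build mm9 are listed, per the submitters' processing notes; the counting step and tool versions are not stated there. All 141862 Ensembl rows matched GENCODE vM21 (GRCm38), which gave names and coordinates; 45489 assembled rows, 36.9% to 51.2% of deposited totals, were left out. Longer introns went with larger deposited values: when transcripts were sorted into 8 bins by genomic span relative to exon length, the first quartile of values above 0 went from 4 to 198. Each value was therefore divided by its own span-to-exon ratio before summing within genes and rounding. Tests used edgeR 4.0.16 (quasi-likelihood, TMM, filterByExpr, Benjamini-Hochberg) in R 4.3.3, checked on simulated data, with DESeq2 1.42.0 as an alternative; the SE is the log2 fold change over the square root of F. Python 3.11.15 and RefSeq promoters (GRCm38.p6) were used.

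The members and lists were chosen with earlier results of these data known. All members are named; members with an unadjusted p under 0.05 or separated groups, and 7 fixed genes, are given in full. From the other pathway genes, Hmox1 and up to 3 of each direction with the smallest p are named. Alternatives were scaling, test, filters, block, rescaling, transcript choice and leaving out each library. No libraries agreed within sampling noise. Deviations of same-numbered libraries correlated at 0.110, 0.144 and 0.266 (other pairs -0.170 to 0.0402). With 3 libraries per group this does not establish that the numbers pair samples, and the labels do not state it. The main test used no block, and values by pair or block are given as an alternative reading.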

Additional observations from a re-analysis of the deposited data

How the results depend on the processing

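Of 530 recomputed member fold changes 510 kept their direction and their side of the adjusted p of 0.05, and 20 reversed in direction; no member passed in any setting. With protein-coding transcripts only, Tkt was 0.13, Osgin1 1.36 and Slc48a1 0.0063, and with the replicate block Slc7a11 was -0.076. Leaving out 1 library moved Nfe2l2 between -0.13 and 0.043, Mafg between -0.30 and 0.81, Slc7a11 between -0.54 and 0.37, Gss between -0.53 and 0.060, Glrx between -0.98 and 0.48, Txn1 between -0.50 and 0.35, Txnip between -0.74 and 0.27, Prdx4 between -0.15 and 0.0040 and Slc48a1 between -0.074 and 0.050. Members lower at an unadjusted p of 0.05 numbered 3, but 6 with the replicate block, 1 with unrescaled values and 1 with protein-coding transcripts only. The shares of all genes at that p, in either direction, were 6.76% as reported and 9.37%, 6.02% and 7.14% in these settings. Without 1 library there were 0 to 3 higher and 1 to 6 lower at that p, beside 5.23% to 7.82% of all genes in either direction. Groups did not overlap in 3 to 6 higher and 4 to 13 lower members. Groups with fewer libraries separate more easily, and the share of all genes with separated groups was not computed for these fits. Nothing about the members can therefore be read from these counts of separated groups. The count of 6 lower at the unadjusted p came without control replicate 3. The count of 0 higher at that p came without Ti replicate 1. The median of the members stayed between -0.12 and -0.067. Over all genes 2 were higher and 2 lower; DESeq2's test gave 163 and 129, the replicate block 0 and 0, protein-coding transcripts only 1 and 1, no filter on low counts 1 lower, and leaving out 1 library 1 to 8 higher and 0 to 7 lower. The causes were not tested.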
